A study of Mus musculus with 2 samples.

Results

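Neutrophils that carried RNA for tumor necrosis factor (Tnf), the chemokine Ccl3, the adhesion molecule Icam1, the macrophage growth factor Csf1 and the interleukin 23 subunit Il23a were examined in orthotopic pancreatic tumors of mice. They were chosen from their measured RNA. A droplet barcode was kept if it had 1000 or more unique molecular identifiers (UMIs, 1 for each captured RNA molecule) and 200 or more genes, with no more than 20% of its UMIs from mitochondrial genes. A kept barcode counted as a neutrophil where S100a8, S100a9, Csf3r, Cxcr2, Il1r2 and G0s2 made up at least 3% of its UMIs and Cd3e, Cd79a and C1qa together gave at most 2 UMIs. Neutrophils were then left out in 4 steps, at 1% for the immature granule genes Camp, Ngp and Ltf, at 0.3% for Retnlg and Mmp8, at 0.3% for 6 interferon-stimulated genes (Rsad2, Ifit3, Isg15, Gbp2, Isg20 and Slfn5), and at 0.15% for the hypoxia genes Hilpda, Bnip3, P4ha1 and Egln3. Of the neutrophils that remained, those with at least 0.3% of their UMIs from Tnf, Ccl3, Icam1, Csf1 and Il23a are called inflammatory neutrophils here, a class cut from a score and not a cell type of its own. There were 262 of them among 14022 kept barcodes, 188 in the PBS library and 74 in the cmExoaCD11b library.

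Neutrophils are short-lived cells that reach a tumor from the blood. Signals from microbes, dying cells and cytokines activate the transcription factor NF-kB in them, and they then make chemokines that draw in further leukocytes, cytokines such as TNF and IL-1, and proteins that hold off apoptosis. NF-kB also turns on its own inhibitors, so that the response is brief.

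Both groups were male C57BL/6J mice, 5 to 6 weeks old when obtained, with K210 cells placed in the pancreas. K210 is a line isolated from a spontaneous pancreatic tumor of a genetically engineered mouse, so that all tumors of both groups came from 1 line. One group was given PBS. The other was given cmExoaCD11b, exosomes of mouse embryonic fibroblasts loaded with cGAMP (5 µg per mouse), which activates STING, and with mRNA for IL-12, that display an antibody to CD11b, an integrin chain (Itgam) of macrophages that neutrophils carry as well. Cells of 3 mice per group were pooled 48 h after treatment into 1 droplet library. With 1 library per treatment no difference below has a replicate check and no test was made. Shares are given with exact Clopper-Pearson and levels with exact Poisson 95% intervals, and each ratio divides cmExoaCD11b by PBS, with a 95% interval from the exact conditional test of both counts. These intervals cover counting error only and take no account of the spread between cells, mice or pools.

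Inflammatory neutrophils made up a smaller share of the neutrophils after cmExoaCD11b than after PBS. They were 188 of 3035 neutrophils in PBS, or 6.19% (5.36 to 7.11), and 74 of 3765 in cmExoaCD11b, or 1.97% (1.55 to 2.46), a ratio of 0.317 (0.239 to 0.417). Of all kept barcodes they were 2.72% (2.35 to 3.13) and 1.04% (0.817 to 1.30). The direction held under each of the 21 alternatives tried, with ratios of 0.252 to 0.504 among neutrophils. The ratio nearest to 1, 0.504, came without the interferon limit.

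The limits removed unlike parts of the 2 libraries, since 450 neutrophils in PBS and 308 in cmExoaCD11b were below all 4. Among these, 41.8% (37.2 to 46.5) in PBS and 24.0% (19.4 to 29.2) in cmExoaCD11b reached the threshold, a ratio of 0.575 (0.433 to 0.756). With no limit applied, 831 of 3035 neutrophils in PBS and 474 of 3765 in cmExoaCD11b reached it, which is 27.4% (25.8 to 29.0) and 12.6% (11.5 to 13.7). The inflammatory neutrophils as defined were thus 22.6% and 15.6% of the neutrophils with this much of the 5 RNAs. Of all neutrophils with this much, 65.8% in PBS and 48.5% in cmExoaCD11b were past the hypoxia limit.

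The difference between libraries was not of 1 size across the classes of neutrophil. Among neutrophils past the hypoxia limit alone, 357 of 588 in PBS and 133 of 212 in cmExoaCD11b reached the threshold, or 60.7% (56.6 to 64.7) and 62.7% (55.8 to 69.3). Their ratio was 1.03 (0.840 to 1.26). Among neutrophils past the interferon limit alone the shares were 54.8% (38.7 to 70.2) of 42 cells and 27.6% (21.7 to 34.2) of 210 cells, a ratio of 0.504 (0.306 to 0.857). Neutrophils past the granule limit alone rarely reached the threshold in either library, at 2.98% and 2.06%, and those past the Retnlg and Mmp8 limit alone did so at 7.88% and 6.88%. The classes themselves were of unequal size, with 33.4% of PBS and 11.7% of cmExoaCD11b neutrophils past the hypoxia limit and 7.02% and 18.5% past the interferon limit.

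**Figure D1:**
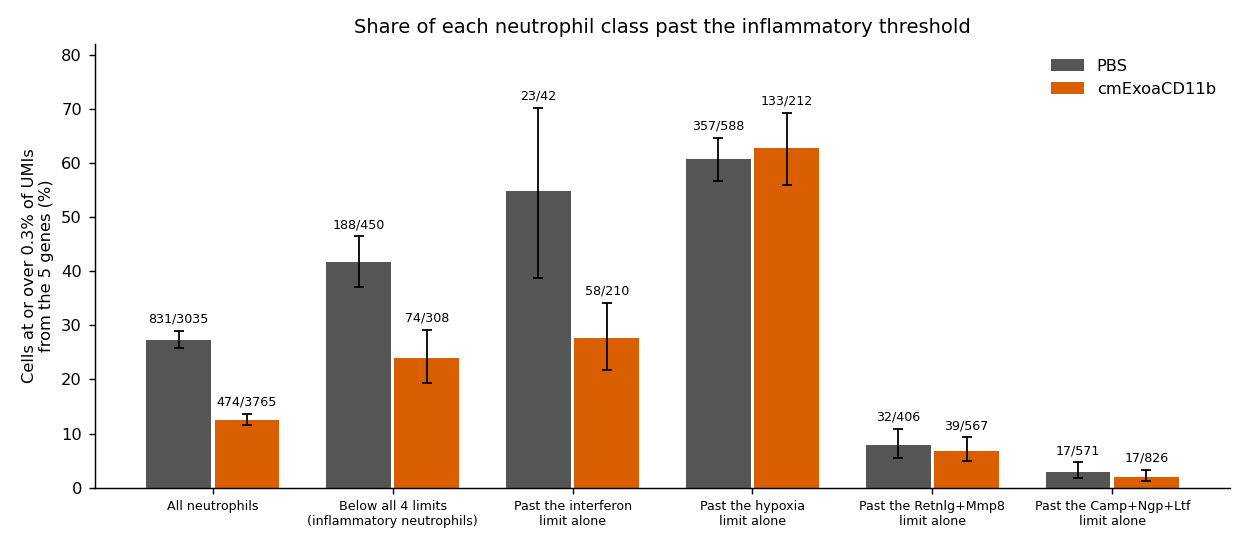
Share of neutrophils (%) with at least 0.3% of UMIs from Tnf, Ccl3, Icam1, Csf1 and Il23a, for all neutrophils, those below all 4 limits, and those past a single limit; grey bars are PBS, orange bars cmExoaCD11b, error bars are exact 95% Clopper-Pearson intervals for counting error, and the numbers above the bars are cells past the threshold over all cells of the class. Below all limits the bars stand at 41.8% and 24.0%, whereas past the hypoxia limit alone they stand at 60.7% and 62.7%.

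Near the threshold the values ran on without a gap. The lowest value inside it was 0.302% in PBS and 0.3005% in cmExoaCD11b, and the highest outside it was 0.296% and 0.299%. Between 0.3% and 0.4% lay 25 and 16 inflammatory neutrophils, and between 0.2% and 0.3% lay 34 and 23 cells just outside. The median inflammatory neutrophil had 0.841% of its UMIs from the 5 genes in PBS and 0.616% in cmExoaCD11b.

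**Figure D2:**
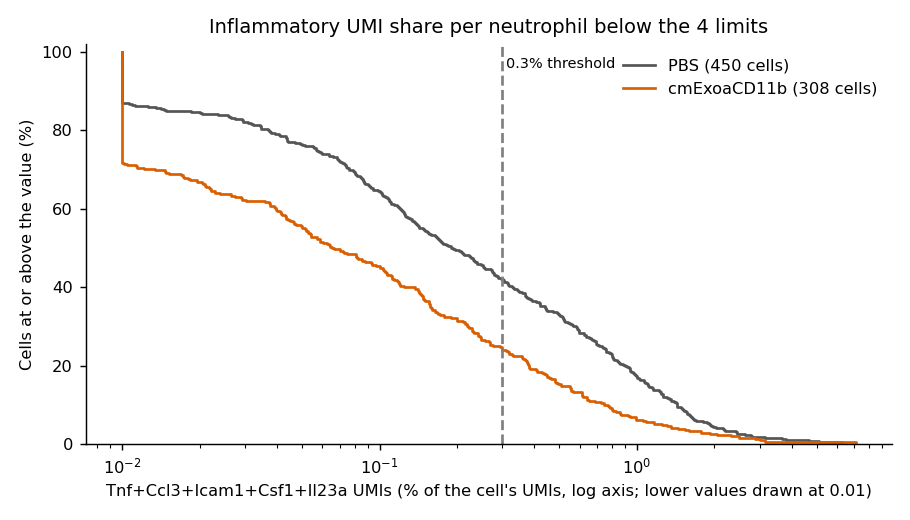
Share of neutrophils below the 4 limits (%, y axis) at or above each value of the 5-gene UMI share (% of the cell's UMIs, log x axis; values under 0.01% are drawn at 0.01%), for the 450 PBS cells (grey) and the 308 cmExoaCD11b cells (orange), with the 0.3% threshold dashed. The PBS curve lies above the cmExoaCD11b curve at the threshold, 41.8% against 24.0%, and neither curve has a step there.

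RNA free in the suspension was examined as a background. In droplets of at most 50 UMIs the 5 genes made up 0.311% of UMIs in PBS and 0.117% in cmExoaCD11b, so the free RNA of the PBS library was itself at the threshold. B cells were chosen by Cd79a, Cd79b and Ms4a1, with no Cd3e UMI and a low share of the neutrophil genes of the rule. Of 1000000 free UMIs these neutrophil genes gave 79802 in PBS and 89491 in cmExoaCD11b. The choice itself thus left out barcodes rich in free RNA, and B cells do not measure the free RNA in neutrophil barcodes. B cells reached the threshold in 6 of 260 barcodes in PBS (2.31%) and 2 of 335 in cmExoaCD11b (0.597%), at median depths of 4572.5 and 7052 UMIs. Their median 5-gene share was 0.0105% in PBS and 0 in cmExoaCD11b. Ccl3, which activated B cells can make, was found in 40.0% and 20% of them, and Il23a in 1.92% and 0.896%.

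The inflammatory neutrophils held 628706 UMIs in PBS and 246857 in cmExoaCD11b, with medians of 3185 and 2531.5 per cell. The 2 libraries as a whole held 67143628 and 81288480 UMIs. One cmExoaCD11b barcode of 35182 UMIs alone gave 14.3% of the UMIs of its group and carried 592 of its 725 Elane UMIs. Elane, Mpo and Prtn3 encode granule proteins of neutrophil precursors, so this barcode stands apart from its label. Among the other neutrophils below the limits, 21 barcodes in PBS and 52 in cmExoaCD11b had over 10000 UMIs and gave 45.7% and 79.1% of the UMIs. Ratios are therefore also given without barcodes over 10000 UMIs, which leaves 187 and 73 inflammatory neutrophils, and comparisons with the other neutrophils use only these smaller barcodes unless stated. The libraries shared 15 kept barcode sequences, 3 of them inflammatory neutrophils in PBS and 0 in cmExoaCD11b.

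Markers of other cell types were low in the inflammatory neutrophils. Of 11 macrophage and monocyte genes, none was at 0 in PBS and Mrc1 and Ms4a7 were at 0 in cmExoaCD11b, and the list summed to 412 and 741 CPM (the UMIs of a gene or list per 1000000 UMIs of the class). Without the barcodes over 10000 UMIs these sums were 406 and 392. Apoe, a lipid carrier made by macrophages, gave 135 UMIs over 84 of 188 cells in PBS and 12 over 8 of 74 in cmExoaCD11b, while free RNA held the whole list at 3547 and 1114 CPM. The 8 T and NK genes summed to 27.0 and 174 CPM, the latter with most UMIs from Nkg7 in 2 cells, and Cd2, Klrb1c and Gzma were at 0 in both libraries. The 6 B and plasma genes summed to 380.1 and 660.3 CPM, mostly the immunoglobulin light chain Igkc, and Cd79b was at 0 in both. The 7 dendritic cell genes summed to 127 and 146 CPM with Xcr1, Ccr7 and Siglech at 0 in both, the 7 mast cell, basophil and eosinophil genes to 9.54 and 4.05 CPM with Cpa3, Ms4a2, Prg2 and Epx at 0 in both, the 6 epithelial and stromal genes to 42.9 and 28.4 CPM with Col3a1 and Sparc at 0 in both, and the 4 erythroid and platelet genes to 36.6 and 207 CPM. Their part in the results was not tested.

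The 5 genes of the rule chose the cells, so their levels are a description. Ccl3, a chemokine that draws in monocytes and macrophages, was the most abundant at 7103 CPM (6897 to 7315) in PBS and 5756 (5461 to 6064) in cmExoaCD11b, and gave 64.5% and 70.1% of the 5-gene UMIs. It was found in 160 of 188 and 62 of 74 cells, and without it 95 and 41 cells would have missed the threshold. Tnf, the cytokine that signals through Tnfrsf1a and Tnfrsf1b, stood at 1901 CPM (1794 to 2012) in PBS and 903 (789 to 1030.0) in cmExoaCD11b.

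Among these 5 genes Tnf differed most between the libraries. Its ratio was 0.475 (0.410 to 0.549), and 0.537 (0.463 to 0.621) without the large barcodes, with a range of 0.434 to 0.699 over 9 alternatives. A single cell gave 19.3% of its UMIs in cmExoaCD11b. It was found in 132 of 188 cells (70.2%) in PBS and in 36 of 74 (48.6%) in cmExoaCD11b. With each cell thinned to 1000 UMIs the shares were 55.9% (48.4 to 63.1) and 41.9% (30.5 to 53.9). In B cells, which were chosen to be low in neutrophil RNA, they were 6.54% and 0.896%. Tnf and Ccl3 were found together in 113 inflammatory neutrophils in PBS (60.1%) and 33 in cmExoaCD11b (44.6%).

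Icam1, the endothelial and leukocyte ligand of the CD11b and CD11a integrins, stood at 711 and 595 CPM. Its ratio was 0.838 (0.690 to 1.01) and ran from 0.530 to 1.20 over the alternatives, on both sides of 1. Csf1, which sustains macrophages, stood at 983 and 733 CPM with a ratio of 0.746 (0.629 to 0.882), and 0.853 (0.718 to 1.01) without the large barcodes. Il23a, the p19 chain that pairs with Il12b to form IL-23, stood at 310.2 and 219 CPM with a ratio of 0.705 (0.512 to 0.958). Without the large barcodes it was 0.798 (0.577 to 1.09), and with thinned cells 1.04. Il12b itself was at 0 in both libraries. Few cells had all 5 RNAs, 19 in PBS and 4 in cmExoaCD11b, and 13 and 14 had a single one of them. The most common number was 3 of the 5 in PBS (66 cells) and 2 of the 5 in cmExoaCD11b (26 cells).

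Promoters of 3 genes of the rule and of the chemokines Cxcl2 and Cxcl3 are shown because these genes are known targets of NF-kB. Each is the 250 bases before the RefSeq start site in build GRCm38.p6. The genome build of the count files is not given in them. The windows are chr17:35202008-35202257 (minus strand) for Tnf, chr11:83649379-83649628 (minus) for Ccl3, chr3:107760470-107760719 (minus) for Csf1, chr5:90903649-90903898 (plus) for Cxcl2 and chr5:90785851-90786100 (plus) for Cxcl3. Capitals mark matches to the NF-kB consensus on either strand, which 3.90% of 32851 RefSeq windows of this length hold.
Tnf: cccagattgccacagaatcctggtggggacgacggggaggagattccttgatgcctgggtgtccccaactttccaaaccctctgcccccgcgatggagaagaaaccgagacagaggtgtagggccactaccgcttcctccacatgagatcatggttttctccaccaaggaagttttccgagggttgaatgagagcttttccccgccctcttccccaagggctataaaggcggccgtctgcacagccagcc
Ccl3: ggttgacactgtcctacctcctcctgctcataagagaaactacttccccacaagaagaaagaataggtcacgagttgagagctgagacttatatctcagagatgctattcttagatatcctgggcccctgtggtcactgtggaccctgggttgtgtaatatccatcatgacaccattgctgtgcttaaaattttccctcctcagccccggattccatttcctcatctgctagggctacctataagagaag
Csf1: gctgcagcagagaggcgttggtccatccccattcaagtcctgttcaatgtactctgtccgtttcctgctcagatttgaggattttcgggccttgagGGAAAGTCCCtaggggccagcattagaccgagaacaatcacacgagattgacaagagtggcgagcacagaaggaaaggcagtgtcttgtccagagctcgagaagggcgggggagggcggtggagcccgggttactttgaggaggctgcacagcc
Cxcl2: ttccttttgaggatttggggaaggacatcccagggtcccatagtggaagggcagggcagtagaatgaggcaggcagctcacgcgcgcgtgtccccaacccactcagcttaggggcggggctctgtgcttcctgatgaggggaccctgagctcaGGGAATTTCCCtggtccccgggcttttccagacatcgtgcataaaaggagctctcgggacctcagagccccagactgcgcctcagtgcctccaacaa
Cxcl3: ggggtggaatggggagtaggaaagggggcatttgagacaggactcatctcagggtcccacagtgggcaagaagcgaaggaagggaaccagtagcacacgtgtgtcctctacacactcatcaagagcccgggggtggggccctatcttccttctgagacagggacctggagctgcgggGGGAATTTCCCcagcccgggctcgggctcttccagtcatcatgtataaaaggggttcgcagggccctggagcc
Of the 5 windows, those of Csf1, Cxcl2 and Cxcl3 held a match and those of Tnf and Ccl3 did not. The Icam1 window, not shown, held none either. In Csf1 it ended 144 bases before the start, and in Cxcl2 and Cxcl3 the marked letters are 2 matches that overlap. For Ccl3 and Cxcl3 the bases after the RefSeq start were not found near the start of a GENCODE M21 transcript, so the placing of their windows is less sure. A match is no proof of binding, and the absence of these letters from the window says nothing of NF-kB at these genes. Of 18 genes looked up, chosen after their values were seen, 16 had a window and 7 of these held the NF-kB consensus.

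The 3 Bcl2a1 genes, which encode the survival protein A1 and are known targets of NF-kB, were lower in cmExoaCD11b together. Bcl2a1a stood at 539 CPM (483 to 599.8) in PBS and 190.4 (139.9 to 253) in cmExoaCD11b, a ratio of 0.353 (0.255 to 0.480). Bcl2a1b stood at 1072 and 547 CPM, a ratio of 0.510 (0.421 to 0.615), and Bcl2a1d at 231 and 97.2 CPM, a ratio of 0.422 (0.262 to 0.652). Without the large barcodes the ratios were 0.404, 0.588 and 0.484, and over the alternatives no ratio of the 3 genes went past 0.705. By cell, Bcl2a1b was found in 136 of 188 cells in PBS and 27 of 74 in cmExoaCD11b.

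The 3 genes were lower in other neutrophils too. In the other neutrophils below the limits the ratios of Bcl2a1a, Bcl2a1b and Bcl2a1d were 0.203 (0.130 to 0.308), 0.441 (0.338 to 0.570) and 0.338 (0.174 to 0.611). The inflammatory neutrophils had 2.13 times the Bcl2a1a of these cells in PBS and 4.23 times in cmExoaCD11b. Free RNA was lower in cmExoaCD11b for all 3 as well. It held Bcl2a1a at 150 and 33.9 CPM, Bcl2a1b at 411 and 110 CPM, and Bcl2a1d at 75.1 and 37.5 CPM. How much free RNA added to the ratios of the 3 genes was not tested. The last 300 bases of the 3 transcripts, where 3' libraries are read, are 98.7% to 99.3% identical in GENCODE M21, so reads may be split or lost between them and the single values are uncertain.

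Their promoters are shown because the 3 copies were lower together. The windows are chr9:88956670-88956919 (plus strand) for Bcl2a1a, chr9:89199023-89199272 (plus) for Bcl2a1b and chr9:88731851-88732100 (minus) for Bcl2a1d, in the same build, with capitals for the letters TGANTCA on either strand, a pattern wider than the AP-1 site TGACTCA.
Bcl2a1a: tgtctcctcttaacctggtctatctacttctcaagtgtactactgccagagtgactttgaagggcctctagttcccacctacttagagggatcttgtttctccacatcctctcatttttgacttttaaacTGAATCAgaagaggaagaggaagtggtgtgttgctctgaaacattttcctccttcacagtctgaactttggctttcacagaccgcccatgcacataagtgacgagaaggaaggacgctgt
Bcl2a1b: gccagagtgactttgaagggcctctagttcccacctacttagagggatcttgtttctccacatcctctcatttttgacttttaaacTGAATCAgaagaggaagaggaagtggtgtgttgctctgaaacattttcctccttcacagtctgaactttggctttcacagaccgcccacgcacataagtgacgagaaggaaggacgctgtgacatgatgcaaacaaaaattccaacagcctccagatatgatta
Bcl2a1d: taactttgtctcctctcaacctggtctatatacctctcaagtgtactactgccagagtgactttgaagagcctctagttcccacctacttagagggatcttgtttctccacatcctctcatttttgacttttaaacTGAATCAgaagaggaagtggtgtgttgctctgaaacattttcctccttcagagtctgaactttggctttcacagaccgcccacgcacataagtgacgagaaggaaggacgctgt
All 3 held 1 match, which reads TGAATCA and so is not the AP-1 site itself, 113, 157 and 107 bases before the start. Of all windows, 6.75% hold these letters, and none of the 3 held the NF-kB consensus.

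**Figure D3:**
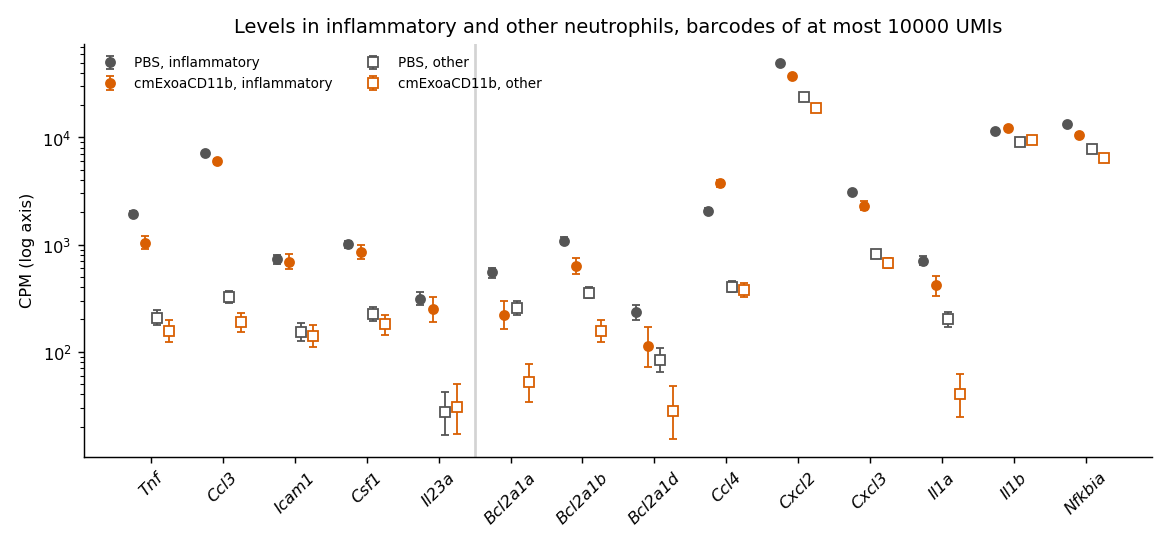
Levels (CPM, log y axis) of the 5 rule genes, left of the vertical line, and of 9 other genes in inflammatory neutrophils (filled circles) and the other neutrophils below the limits (open squares), PBS in grey and cmExoaCD11b in orange, from barcodes of at most 10000 UMIs with exact 95% Poisson intervals. Bcl2a1a, Bcl2a1b and Bcl2a1d lie lower in cmExoaCD11b in both classes of cell, whereas Ccl4 lies at 2066 and 3737 CPM in the inflammatory neutrophils and at 406 and 375 CPM in the others.

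Over all genes, 2280 had at least 50 UMIs in the inflammatory neutrophils of both libraries together. Of these, 132 (5.79%) were at least 2-fold higher in cmExoaCD11b and 85 (3.73%) at least 2-fold lower, and the median ratio was 1.04. Without the large barcodes 91 of 2129 genes (4.27%) were 2-fold higher and 85 (3.99%) 2-fold lower. The counts below are to be read beside these.

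In the Bcl2 family and survival list, 2 of the 11 genes tested were 2-fold lower, Bcl2a1a and Bcl2a1d, and none was 2-fold higher. The list's median ratio was 0.624, and 9 of 11 ratios were below 1. The pro-apoptotic genes Pmaip1 (Noxa) and Bcl2l11 (Bim) stood at 442 and 247 CPM, with a ratio of 0.559 (0.416 to 0.740), and at 423 and 259 CPM, with a ratio of 0.613 (0.459 to 0.808). Cdkn1a, the cell cycle inhibitor p21, stood at 1317 and 822 CPM with a ratio of 0.624 (0.533 to 0.729). By contrast the anti-apoptotic Mcl1, found in nearly every cell, stood at 3599 and 3383 CPM (0.940, 0.867 to 1.02), and Bcl2l1 at 449 and 486 CPM (1.08, 0.868 to 1.35). Members of the list that hold off apoptosis and members that bring it about were thus both among the lower ones.

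Chemokine RNA was abundant in these cells. Cxcl2, which draws neutrophils through Cxcr2, alone made up 48387 CPM (47844 to 48934) in PBS and 33801 (33079.5 to 34534) in cmExoaCD11b, in 187 of 188 and 71 of 74 cells. Its ratio was 0.699 (0.682 to 0.716), and 0.766 (0.748 to 0.786) without the large barcodes. Its relative Cxcl3 stood at 3129 and 2062 CPM with a ratio of 0.659 (0.597 to 0.727), though 1 cell gave 24.0% of its UMIs in cmExoaCD11b. In the other neutrophils below the limits the ratios of Cxcl2 and Cxcl3 were below 1 too, at 0.785 and 0.828. Free RNA held Cxcl2 at 14174 CPM in PBS and 6091 in cmExoaCD11b, and Cxcl3 at 1660 and 464 CPM. Its part in these ratios was not tested.

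Ccl4 went the other way. This chemokine, a close relative of Ccl3, stood at 2025 CPM (1915 to 2139) in PBS and 3309.6 (3087 to 3545) in cmExoaCD11b, a ratio of 1.63 (1.5 to 1.79) that ran from 1.28 to 2.80 over the alternatives. It was found in 100 of 188 and 42 of 74 cells, and 1 cell gave 9.51% and 10.8% of its UMIs. In the other neutrophils below the limits its ratio was 0.924 (0.765 to 1.11). Free RNA held Ccl4 at 1448 CPM in PBS and 1103 in cmExoaCD11b. The Ccl4 level in inflammatory neutrophils was 5.09 times that of the other neutrophils in PBS and 9.95 times in cmExoaCD11b.

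Of the 8 chemokine genes tested, 1 was 2-fold lower, none was 2-fold higher, and the median ratio was 0.679. The 1 was Cxcl10, the interferon-induced ligand of Cxcr3, with 85 UMIs in PBS, 49.4% of them in 1 cell, and 5 in cmExoaCD11b. Its ratio of 0.15 turned to 9.63 when neutrophils past the interferon limit were let in. Ccrl2, a receptor that binds chemerin without signalling, stood at 3380.0 and 1718 CPM with a ratio of 0.508 (0.457 to 0.564), which became 0.956 without the interferon limit. In the other neutrophils its ratio was 0.993 (0.903 to 1.09).

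Among cytokines and growth factors outside the rule, a list without Tnf, none of the 10 genes tested passed 2-fold in either direction, and the median ratio was 0.914. Il1b, the most abundant, stood at 11185 and 10516 CPM with a ratio of 0.940 (0.898 to 0.984), which became 1.07 without the large barcodes. Il1a stood at 690.3 and 356 CPM with a ratio of 0.516 (0.406 to 0.651), and the receptor antagonist Il1rn at 708 and 539 CPM with a ratio of 0.761 (0.622 to 0.926). Osm, oncostatin M, stood at 924 and 619.8 CPM (0.671, 0.558 to 0.803), whereas Ptgs2, the prostaglandin synthase COX-2, stood at 1055 and 976 CPM (0.926, 0.796 to 1.07). Il6 and Csf3 were at 0 in both libraries.

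The NF-kB list held 18 tested genes with a median ratio of 0.948, of which 1 was 2-fold lower and none 2-fold higher. Nfkbia, which encodes the inhibitor IkB-alpha and is the best known feedback gene of the pathway, stood at 12996 CPM (12716 to 13281) in PBS and 9564 (9182 to 9958) in cmExoaCD11b, a ratio of 0.736 (0.703 to 0.770). The 2-fold lower gene was the inhibitor Nfkbib, with 66 UMIs in 52 cells and 7 UMIs in 7 cells, a ratio of 0.270 (0.105 to 0.588). The adaptor Traf1 stood at 202 and 101 CPM with a ratio of 0.501 (0.313 to 0.774), which turned to 1.11 without the interferon limit.

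Other feedback genes of the pathway lay on both sides of 1. Tnfaip3, the deubiquitinase A20, stood at 903 and 1017 CPM with a ratio of 1.13 (0.966 to 1.31), and Nfkbiz, a co-activator of secondary response genes, at 1901 and 2163 CPM with a ratio of 1.14 (1.03 to 1.26). Ier3 stood at 7985 and 6421 CPM with a ratio of 0.804 (0.760 to 0.851). The genes of the list were therefore not shifted as one, with 7 ratios above 1 and 11 below. Without the large barcodes 10 ratios were above 1 and 8 below, and the median ratio was 1.05.

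**Figure D4:**
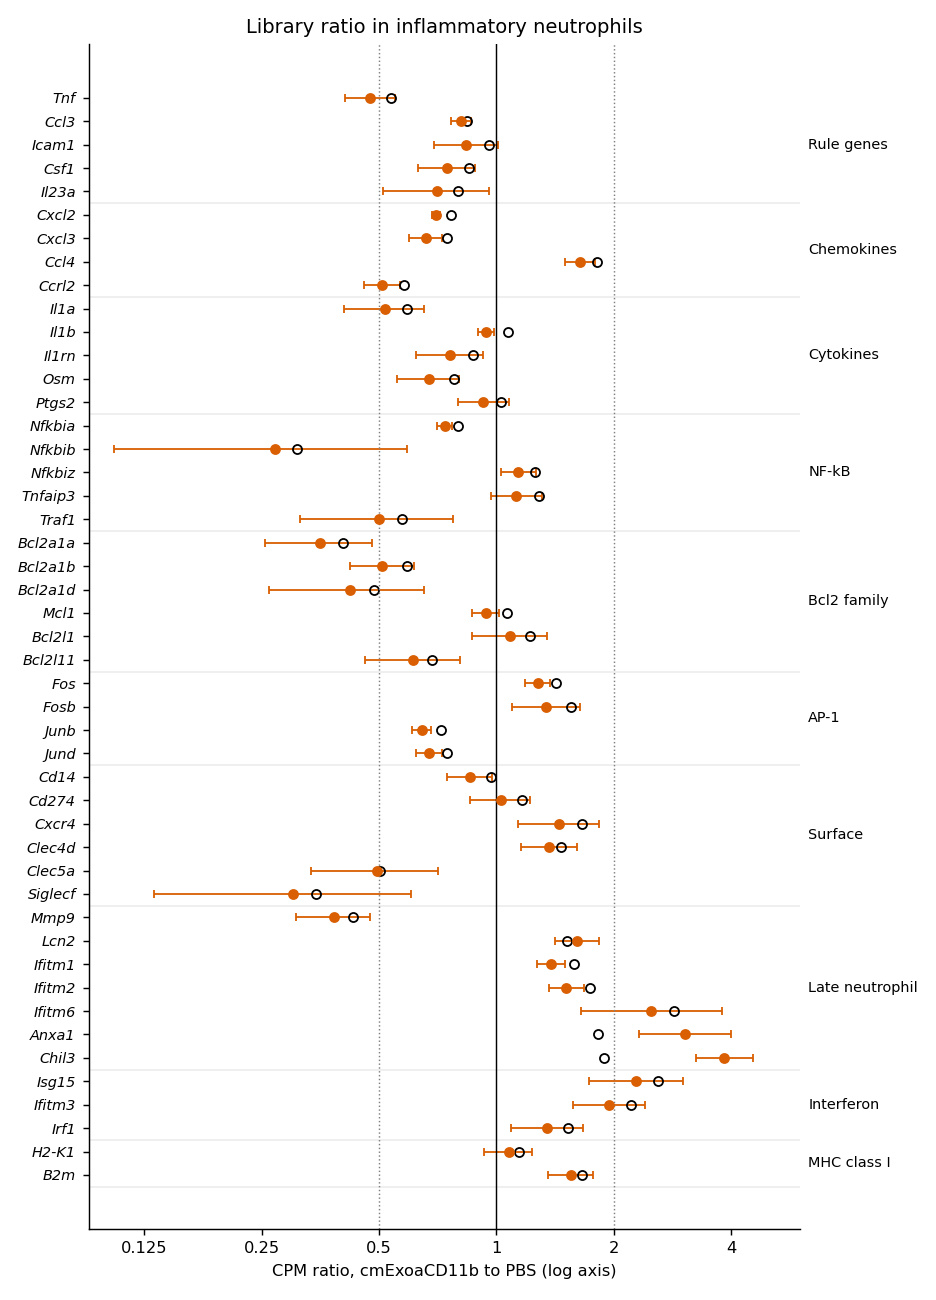
Ratio of CPM in cmExoaCD11b to PBS (log x axis) in inflammatory neutrophils for named genes, by group. Orange points with exact conditional 95% intervals use all 262 cells and open black circles leave out the barcodes over 10000 UMIs; dotted lines mark 2-fold. Tnf lies at 0.475 and Bcl2a1a at 0.353, Ccl4 lies at 1.63, and Anxa1 and Chil3 move toward 1 without the large barcodes.

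Immediate-early genes are made within minutes of a signal or of tissue handling. Of 15 tested, none passed 2-fold and the median ratio was 0.857. Fos stood at 3270.2 and 4168 CPM with a ratio of 1.27 (1.18 to 1.37) and Fosb at 463 and 619.8 CPM with a ratio of 1.34 (1.09 to 1.63), which became 0.911 at a threshold of 0.5%. Junb stood at 9901 and 6372 CPM with a ratio of 0.644 (0.609 to 0.680), and Jund at 4808 and 3233 CPM with a ratio of 0.672 (0.621 to 0.727). In the other neutrophils Fos and Junb had ratios of 1.44 and 0.685, and Jund one of 1.03.

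Of 18 surface receptors and adhesion genes tested, 2 were 2-fold lower, none was 2-fold higher, and the median ratio was 0.853. The 2 were Clec5a, an activating lectin receptor, at 296 and 146 CPM (0.493, 0.335 to 0.707), and Siglecf, an inhibitory lectin known from eosinophils and from tumor neutrophils, with 76 UMIs in 42 cells and 9 UMIs in 8 cells (0.302, 0.133 to 0.603). Both were lower in the other neutrophils too, at ratios of 0.245 and 0.214. Cxcr4, the receptor that holds neutrophils in the marrow, stood at 313 and 454 CPM (1.45, 1.14 to 1.84) and the lectin receptor Clec4d at 655 and 895 CPM (1.37, 1.15 to 1.61). Cd274, which encodes the checkpoint ligand PD-L1, stood at 716 and 733 CPM (1.02, 0.857 to 1.22), and the endotoxin co-receptor Cd14 at 1457 and 1244 CPM (0.854, 0.748 to 0.972).

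The list called late neutrophil genes here is a label and no measure of stage. Its ratios were spread on both sides, with 3 of 15 tested 2-fold higher, 2 of 15 2-fold lower and a median ratio of 1.25. Mmp9, the granule gelatinase, stood at 1048 CPM (969.7 to 1131) in PBS and 401 (326 to 488) in cmExoaCD11b, a ratio of 0.383 (0.307 to 0.473), and had a ratio of 0.363 in the other neutrophils. Cd177 gave 67 and 13 UMIs, a ratio of 0.494 (0.25 to 0.903). Higher by 2-fold were Chil3, Anxa1 and Ifitm6, with ratios of 3.84, 3.05 and 2.50. The 1 large barcode, which also held most Elane UMIs, gave 58.3% of the Chil3 and 51.6% of the Anxa1 UMIs of cmExoaCD11b. Without the large barcodes the ratios of Chil3 and Anxa1 were 1.89 and 1.82, while that of Ifitm6 was 2.85 (1.88 to 4.31). With thinned cells the ratio of Ifitm6 was 1.05.

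Interferon-stimulated genes were held down by the rule, which cut cells by 6 of them, yet the remaining levels were higher in cmExoaCD11b. Isg15, a ubiquitin-like modifier and 1 of the 6, stood at 181 and 413 CPM with a ratio of 2.28 (1.73 to 3.0). Of 6 tested genes outside the rule none passed 2-fold and the median ratio was 1.36. With the large barcodes left out, 1 of the 6 was 2-fold higher, Ifitm3 at 2.22 (1.79 to 2.74), and the median was 1.55. Ifitm3, which blocks virus entry, stood at 331 and 644 CPM (1.95, 1.57 to 2.40) and the factor Irf1 at 423 and 571 CPM (1.35, 1.09 to 1.66). Of the MHC class I genes, B2m stood at 961 and 1491 CPM (1.55, 1.36 to 1.77) and H2-K1 at 1075 and 1155 CPM (1.07, 0.932 to 1.23), 1 of 7 tested was 2-fold lower, Tap2 with 42 and 8 UMIs, and the median ratio was 1.07.

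Glycolysis and hypoxia genes outside the rule had a median ratio of 0.985 over 13 tested, with 1 of them 2-fold lower. This was Hk2, the hexokinase that starts glycolysis, at 235 and 101 CPM (0.430, 0.270 to 0.660), and the lactate enzyme Ldha stood at 547 and 539 CPM (0.985, 0.8 to 1.21). In the other neutrophils below the limits, without the large barcodes, the same genes had a median ratio of 0.534 against 0.955 in the inflammatory neutrophils, and Ldha a ratio of 0.447 (0.364 to 0.546) against 0.955 (0.764 to 1.18). Heat-shock genes had a median ratio of 1.19, with 1 of 7 2-fold higher, Hspa1b, and genes of STING and NF-kB sensing a median ratio of 0.964 with none of 5 past 2-fold. Of the latter, 1 of 4 was 2-fold higher without the large barcodes, the adaptor Myd88 at 2.02 (1.16 to 3.46), and their median was 1.21. Tmem173, which encodes STING, the receptor of cGAMP, was at 0 in cmExoaCD11b, where the cells held 246857 UMIs against 628706 in PBS. It was under the level for testing, so the 2 libraries were not compared for it.

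**Figure D5:**
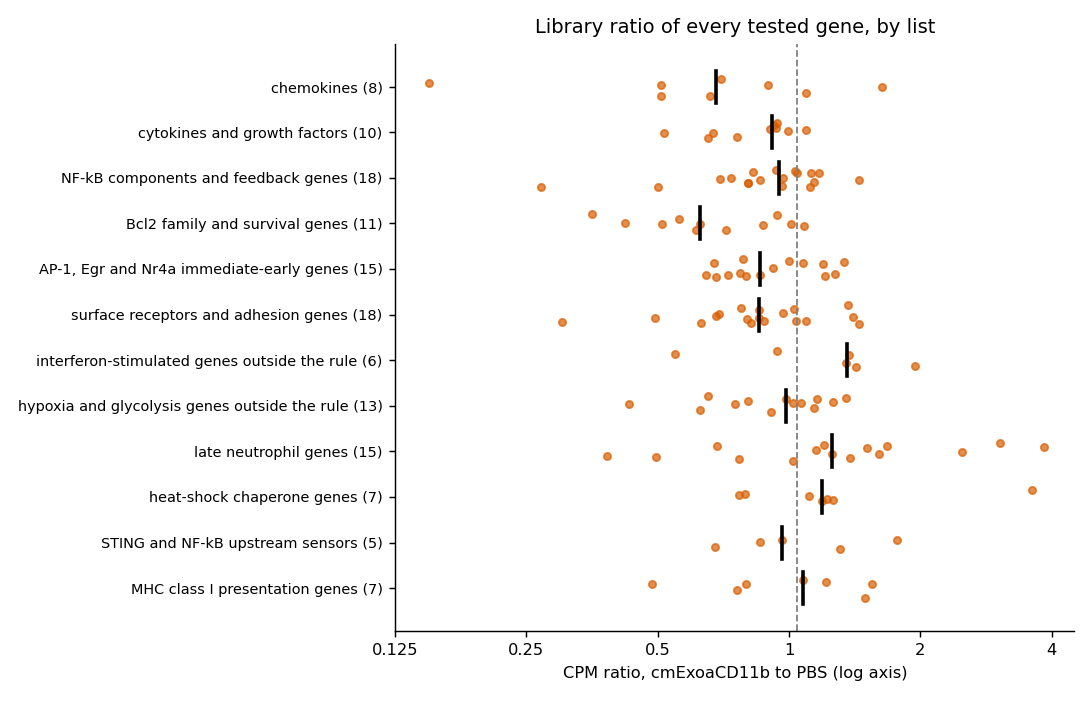
Ratio of CPM in cmExoaCD11b to PBS (log x axis) in inflammatory neutrophils for every gene tested of 12 lists, with the number tested in parentheses; each point is a gene, the black bar is the median of its list and the dashed line the median of all 2280 genes, 1.04. The medians of the chemokine and Bcl2 lists lie lowest at 0.679 and 0.624, and those of the interferon-stimulated and late neutrophil lists highest at 1.36 and 1.25.

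The 10 smallest ratios among all genes tested belonged to Csta2, Spp1, H1f0, Cxcl10, Fam20c, Apoe, Arl4c, Scimp, Llph and Nfkbib, from 0.104 to 0.270. Csta2, a stefin that inhibits cathepsins, gave 147 UMIs in 25 cells in PBS, 36.1% of them in 1 cell, and 6 UMIs in cmExoaCD11b, all in 1 barcode over 10000 UMIs. Spp1, osteopontin, gave 195 UMIs in 64 cells and 11 in 9 cells, a ratio of 0.144 (0.0705 to 0.263) that became 0.735 without the interferon limit. H1f0, a linker histone, gave 229 UMIs in 31 cells and 14 in 6 cells (0.156, 0.0838 to 0.267) and was lower in the other neutrophils as well (0.0767). Spp1 and Apoe are also strongly made by tumor macrophages. Free RNA held Spp1 at 1400 and 229 CPM, above the 310.2 and 44.6 CPM in the cells, and Apoe at 2226 and 257 CPM, above 215 and 48.6 CPM. The part of free RNA in these ratios was not tested.

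The 10 largest ratios belonged to Elane, Mpo, Ly6c2, Ms4a3, Fcnb, Prtn3, Serpinb1a, Gstm1, Plac8 and Cd69, from 49.9 to 4.97. Elane, Mpo, Prtn3, Ms4a3 and Fcnb are genes of granulocyte precursors, and in each of the 10 except Cd69 a single barcode gave 46.0% or more of the UMIs in cmExoaCD11b. At a threshold of 0.5% the ratio of Elane was 1.25, and those of Mpo, Prtn3, Ms4a3, Fcnb and Serpinb1a were below 1. Free RNA held Elane at 489 and 798 CPM. Without the large barcodes Elane stood at 35.8 and 628 CPM, a ratio of 17.6 (11.1 to 29.0), with 22 UMIs in PBS and 133 in cmExoaCD11b. Plac8 was found more widely, in 51 of 188 and 40 of 74 cells, with a ratio of 6.04 (4.76 to 7.70) and of 4.48 without the large barcodes. In free RNA it stood at 520 CPM in PBS and 1054 in cmExoaCD11b, above the 159 and 960 CPM in the cells. Cd69, an early activation antigen, gave 21 UMIs in 12 cells and 41 in 11 cells, a ratio of 4.97 (2.87 to 8.86). It stood at 33.4 and 166 CPM in the cells, and at 64.8 and 155 CPM in free RNA. How much free RNA added to the ratios of Plac8 and Cd69 was not tested.

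Chemokines, IL-1 family genes and survival genes were among the RNAs outside the rule that were higher in the inflammatory neutrophils than in the other neutrophils below the limits. Over all barcodes, the large ones included, the 20 ranked highest were Il1a, Ccl4, Csta2, Cxcl3, Bcl2a1b, Pdcd1lg2, Bcl2a1a, Bcl2a1d, Tnfsf9, Creb5, Cxcl2, Il1rn, Ptgs2, Dusp2, Gadd45b, Nr4a3, Amer2, Basp1, Cxcl1 and Upp1. Without the large barcodes Il1a was 3.52 times higher in PBS and 10.3 times in cmExoaCD11b, and Cxcl2 was 2.07 and 2.02 times higher. Pdcd1lg2, the checkpoint ligand PD-L2, was 4.15 and 3.12 times higher, and the phosphatase Dusp2 2.93 and 2.97 times. Cxcl1 was 0.971 times the other cells' level in PBS. In cmExoaCD11b it was 11.7 times that level (2.49 to 110), from only 10 UMIs against 2. The order depends on the large barcodes. Without them Hk2 (2.34 and 3.71) and H1f0 (2.36 and 5.46) stood above Cxcl2, and Csta2 had 0 UMIs in cmExoaCD11b. The cells compared were split by the 5 genes, so these ratios describe what was found with them.

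The cells were chosen on a sum that holds Tnf, so likeness to Tnf among them is a description within that choice. Over the 188 PBS cells the RNA whose level per cell was most like that of Tnf was Nfkbia, with a Pearson correlation of 0.455 on log-transformed values, followed by Gadd45b (0.332), Dusp2 (0.328), Ccrl2 (0.324) and Bcl2a1b (0.302), out of 1696 genes. Over the 74 cmExoaCD11b cells, where 764 genes could be used, the highest was Igsf6 at 0.308, and the 2 orders cannot be compared. The cells of a library share its depth and free RNA, the correlations are weak, and the number of cells differed.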

How the data were processed

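Single-cell 3' RNA libraries (10x Chromium v3.1) were made from the pooled tumor immune cells of each group. The authors deposited unfiltered matrices of UMI counts per gene and barcode, not normalized, and the matrix headers name Cell Ranger 7.1.0, whereas the methods of the study name another version. The genome build is not given in the sources used here. Barcodes were chosen as described, with Python 3.11.15, numpy 2.4.6, scipy 1.17.1, pandas 2.3.3 and scanpy 1.11.5. UMIs were summed over the cells of a class in each library and divided by the class total (CPM), and genes with at least 50 UMIs were compared between the 2 libraries, grouped by their labels. No count model was fitted. Doublets were not removed in the main result, since the automatic threshold of Scrublet marked 0 cells, and removing the highest scores was an alternative. Named genes were the genes of the rule and Bcl2a1a, the extreme and most abundant genes of each list, the 10 largest and 10 smallest ratios without predicted genes, the 20 genes highest over other neutrophils, and those most like Tnf; further list members were named after their values were seen. The members and lists were chosen with earlier results of these data known. The computation of ratios was tested on simulated data. Promoters came from RefSeq (GRCm38.p6), and Il23a and Ccl4 have no printed window.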

Additional observations from a re-analysis of the deposited data

Results flagged for a closer look

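Hspa1b, an inducible heat-shock chaperone, had a ratio of 4.11 in the inflammatory neutrophils and 0.464 in the other neutrophils below the limits, both without barcodes over 10000 UMIs. It was found in 38 of 188 and 18 of 74 inflammatory neutrophils, and 1 cell gave 32.7% of its UMIs in cmExoaCD11b. Over all barcodes, 4 more genes had ratios on opposite sides of 1 in the 2 classes, each past 2-fold. Mat2a had a ratio of 0.466 in the inflammatory neutrophils and 2.45 in the others, and Ctsc ratios of 0.306 and 2.68. Cd300ld had ratios of 2.2 and 0.395. Gm26917 had ratios of 0.457 and 2.11, with 86.8% of its PBS UMIs in 1 cell. With 1 library per treatment these differences between the classes were not tested. Barcodes over 10000 UMIs gave 45.7% and 79.1% of the UMIs of the other neutrophils, and without these barcodes none of the 4 met the same condition.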

How the results depend on the processing

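The share of inflammatory neutrophils was lower in cmExoaCD11b under each of 21 alternatives, with ratios of 0.252 to 0.504 of neutrophils and 0.304 to 0.607 of kept barcodes. It moved beyond its interval without the interferon exclusion (0.504 and 0.607) and with all 4 exclusions dropped (0.460 and 0.553), the latter chosen after seeing the data. The 132 genes 2-fold higher became 82 at a threshold of 0.5%, 35 with cells thinned to 1000 UMIs, 373 and 56 at gene minimums of 20 and 100 UMIs, and 2730 with none. The 85 genes 2-fold lower became 31 with thinned cells, 264 and 33 at these minimums, and 3053 with none. The thinned libraries hold fewer UMIs, so fewer genes were tested. Leaving out barcodes over 10000 UMIs, also chosen after seeing the data, gave 91 and 85. Among named genes past 2-fold, Cxcl10 turned to 9.63 without the interferon exclusion and Hspa1b to 0.992 with thinned cells. At 0.5% Fcnb turned to 0.833, Mpo to 0.938, Ms4a3 to 0.804, Prtn3 to 0.433 and Serpinb1a to 0.357. Some named genes short of 2-fold crossed 1 as well. Traf1 went from 0.501 to 1.11 without the interferon exclusion. Over the alternatives Cxcl1 ran from 0.268 to 2.22, Icam1 from 0.530 to 1.20 and Fosb from 0.911 to 1.55, and these are not all such genes. The cause was not tested. No paired analysis was possible because each treatment has 1 library. Depth limits genes under 50 UMIs, which were not compared.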
